A study of Homo sapiens with 6 samples.

Results

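The genes described here are 8 components of the caspase machinery that dismantles a cell during apoptosis. They are CYCS (cytochrome c), APAF1, the caspase genes CASP2, CASP6, CASP8, CASP9 and CASP10, and the caspase-like inhibitor CFLAR. They were taken by gene symbol from a table of read counts for 26485 genes, all 8 were present, and all 8 were among the 12907 genes with enough reads to test. The cells were OCI-LY8, a human lymphoma line of germinal centre B-cell type. The control group (n = 3 libraries) carried a non-targeting guide RNA, named sgNTC1, and is labelled WT. The knockout group (n = 3 libraries) carried a guide RNA labelled sgSETD1BKO and is labelled SETD1B knockout. SETD1B is a histone H3 lysine 4 methyltransferase. The design text describes the parental line as KMT2D mutant, a state that both groups would share, but it names OCI-LY19 where every sample names OCI-LY8. The labels name a single guide per group, do not say whether a knockout group is a clone or a pool, and do not say that replicates were separate cultures. The p-values therefore measure the spread between these libraries, which may be technical, and SETD1B loss cannot be told apart from other differences between the guide-bearing populations.

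Apoptosis runs along a pair of converging routes. In the mitochondrial route, cytochrome c leaves the intermembrane space and binds APAF1, which assembles into a wheel-shaped complex, the apoptosome, that recruits and activates caspase-9. In the death receptor route, receptors such as FAS gather the adaptor FADD, which recruits the initiators caspase-8 and caspase-10, and the product of CFLAR, c-FLIP, limits their activation. Both routes feed executioner caspases that cut cellular proteins. In B cells FAS-driven apoptosis helps to remove germinal centre cells, and inherited defects in FAS or CASP10 underlie autoimmune lymphoproliferative syndrome. In living cells cytochrome c is an electron carrier between complexes III and IV of the respiratory chain, so its transcript belongs to respiration as much as to cell death.

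Library depth ran from 28726108 to 34453249 assigned reads. Levels are read counts scaled by TMM-adjusted library size (CPM), given as mean ± SD with n = 3. Fold changes are knockout minus control on the log2 scale, and a change was called at an edgeR adjusted p under 0.05. At that threshold 15.0% of all tested genes were called, 5.71% higher and 9.33% lower in the knockout libraries. Knockout replicate 3 differed most from its group, at -30.1 on the second principal component against 15.0 and 20.8, so member values without it are given where they change a call. SETD1B itself held 59.8, 54.8 and 53.8 CPM in the controls and 87.4, 90.2 and 55.1 CPM in the libraries labelled knockout (edgeR adjusted p = 0.14), so its transcript was not lower and does not check the edit. SETD1B was called higher with DESeq2 (adjusted p = 0.035), with an offset for GC content (edgeR adjusted p = 2.1e-05) and without knockout replicate 3 (log2 0.66, edgeR adjusted p = 8.1e-07). B-cell markers were abundant (summed 2162 to 2194 CPM in controls and 2231 to 2886 CPM in knockouts). Among them MS4A1 was called lower (edgeR adjusted p = 0.0013) and PAX5 and CD22 higher (edgeR adjusted p = 0.0040 and 0.0026). The 6 germinal centre markers summed to 619 to 635 CPM and 706 to 741 CPM, with SERPINA9 at 0 reads. S1PR2, BCL6 and MYBL1 were called higher and LMO2 lower, the last call ending in 5 of 6 fits that leave out a library. The 6 T-cell markers present in the table summed to 7.05 to 7.63 CPM and 4.37 to 5.86 CPM, with CD3D at 0 and CD8A as the bulk, and the 8 myeloid markers to 22.6 to 28.6 CPM and 11.2 to 16.3 CPM. Of the 6 tested myeloid markers LYZ, ITGAM, TYROBP and CST3 were called lower and none higher. ITGAM fell most (log2 -1.61, edgeR adjusted p = 7.2e-04), and only its call held in each fit that leaves out a library. The part of the lower T-cell and myeloid marker sums in the results below was not tested. In bulk RNA, fewer cells with a transcript and less transcript per cell cannot be told apart.

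CASP10 and CYCS were the members that changed, and both were lower in the knockout libraries. That is 2 of 8, read against the 9.33% of all tested genes called lower. No member was called higher by edgeR, DESeq2 or limma-voom. At an unadjusted edgeR p under 0.05, 1 was higher, CASP2, and 3 were lower. CASP2 ranked 2764 by p among the 12907 tested genes, so such a p was common. The other 6 did not pass, and the 95% interval of each fold change lay between -0.47 and 0.35 on the log2 scale. The median log2 fold change of the 8 was -0.12, against -0.01 over all tested genes. The groups did not overlap for 5 members, 3 lower and 2 higher, whereas this held for 37.7% of all tested genes (21.3% lower and 16.5% higher).

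**Figure D1:**
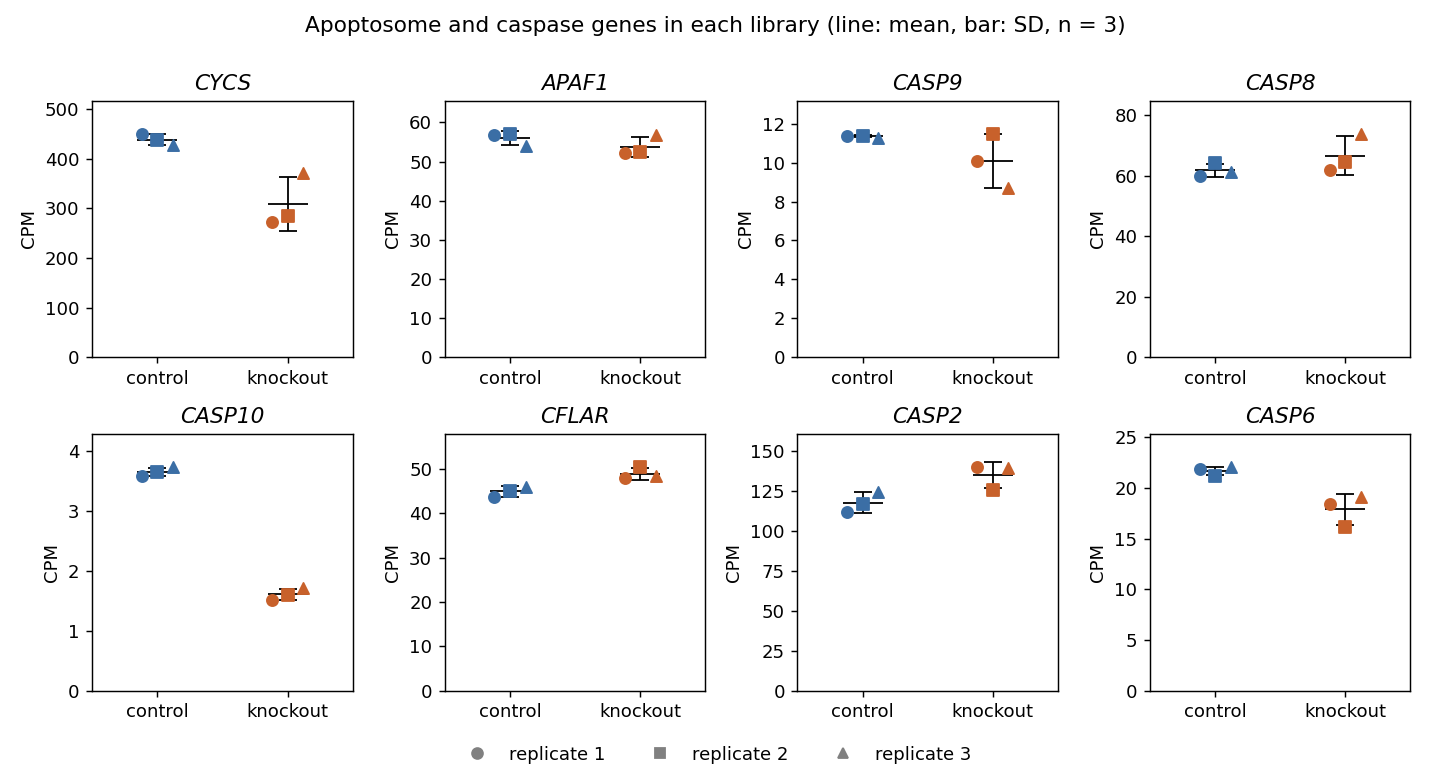
Each panel shows one gene; the vertical axis is CPM from 0, points are single libraries (blue control, orange knockout, marker shape for replicate), and the line and bar are the mean and SD of 3. CASP10 falls from 3.66 to 1.61 CPM with tight groups, whereas CYCS falls with knockout replicate 3 (371 CPM) lying nearest to the controls.

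CYCS was the most abundant member. The stretch of its promoter below is shown because CYCS is the abundant member that changed and because its upstream region carries classical elements. It lies 102 to 250 bases upstream of the RefSeq start, at chr7:25125362-25125510 (GRCh38, minus strand, printed 5′ to 3′ along the gene), upstream of every CYCS exon in GENCODE 29. The sequence is from RefSeq, and the capitals mark matches to GCATGCGC, part of the binding site of NRF1 (nuclear respiratory factor 1), and to CCAAT on either strand.
CYCS upstream: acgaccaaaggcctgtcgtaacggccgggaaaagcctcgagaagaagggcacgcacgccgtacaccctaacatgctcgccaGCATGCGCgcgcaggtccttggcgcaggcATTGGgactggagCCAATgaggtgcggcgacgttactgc
The letters GCATGCGC, searched on both strands after this sequence had been seen, occur in 3.05% of 35116 RefSeq promoter windows of 300 bases, and among the 7 members with such a window only in that of CYCS. CCAAT occurs in 34.6% of windows and in those of 5 members, and its matches do not overlap the other motif. A match describes the letters and not a bound factor.

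Cytochrome c mRNA was lower in all 3 knockout libraries than in any control. CYCS (ENSG00000172115.8, chr7:25120091-25125361, hg38, minus strand) held 15523, 12658 and 13094 reads in the controls and 8394, 8195 and 11713 in the knockouts. In CPM the controls stood at 450, 437 and 429 and the knockouts at 272, 284 and 371. The controls lay close together, the first pair of knockout libraries lay far below them, and knockout replicate 3 lay between. The fall from 439 ± 10.8 to 309 ± 53.9 CPM was 1.42-fold (log2 -0.51, SE 0.12, 95% interval -0.78 to -0.23, edgeR adjusted p = 0.030). Without knockout replicate 3 it was larger (log2 -0.66, edgeR adjusted p = 3.0e-08). Leaving out any other single library ended the call, with edgeR adjusted p between 0.074 and 0.12 and log2 fold changes between -0.52 and -0.40. GENCODE 29 names 40 processed copies of CYCS, of which the count table lists 1, at 0 reads. Reads shared with such copies may have been dropped or assigned by rules not given in the sources used here, so the absolute level of CYCS is uncertain.

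The scaffold and the initiator of the apoptosome showed no called change beside this. APAF1, which forms the complex (ENSG00000120868.13, chr12:98645141-98735433), held 56.9, 57.0 and 53.9 CPM in controls and 52.1, 52.3 and 56.7 CPM in knockouts. The groups overlapped, and the log2 fold change of -0.06 had an interval of -0.20 to 0.08 (edgeR adjusted p = 0.59). CASP9, the initiator caspase bound by APAF1 (ENSG00000132906.17, chr1:15490832-15526534, minus strand), held 11.4, 11.4 and 11.3 CPM in controls. Its knockout values were 10.1, 11.5 and 8.70 CPM, spread wider than the controls and on both sides of them. The log2 fold change was -0.17 with an interval of -0.44 to 0.10 (edgeR adjusted p = 0.38), which does not show that CASP9 was alike in both groups.

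Within a library, the count ratio of CYCS to APAF1 needs no scaling between libraries. It was 7.92, 7.67 and 7.95 in the controls and 5.22, 5.43 and 6.54 in the knockouts. The groups did not overlap, and the mean log2 ratio was 2.97 ± 0.03 against 2.51 ± 0.17. The difference of -0.46 had an exact two-sided permutation p of 0.1, the smallest that 3 against 3 libraries can give.

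CASP10 showed the larger relative change of the pair. Caspase-10 is the closest human relative of caspase-8 and is recruited to the same receptor complexes, and mice lack the gene. CASP10 (ENSG00000003400.14, chr2:201182881-201229406, hg38, plus strand) held 124, 106 and 114 reads in the controls and 47, 46 and 54 in the knockouts. In CPM the controls stood at 3.60, 3.66 and 3.73 and the knockouts at 1.52, 1.59 and 1.71. Both groups were tight and far apart, and knockout replicate 3 did not differ from its group as it did for CYCS. At 46 to 124 reads per library, counting error alone is wider than the spread within each group. The SE and interval below may therefore be too small. CASP10 fell 2.27-fold, from 3.66 ± 0.07 to 1.61 ± 0.09 CPM (log2 -1.18, SE 0.12, 95% interval -1.47 to -0.90, edgeR adjusted p = 0.0011). It ranked 237 among all tested genes by p. All 15 alternatives that tested it called it, with log2 fold changes from -1.23 to -1.13. A filter of 5 CPM removed it, since it was the least abundant member.

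CASP8, the main initiator of the death receptor route, lies next to CASP10 and was not called. CASP8 (ENSG00000064012.21, chr2:201233443-201287711) held 59.96, 64.3 and 61.2 CPM in controls and 61.8, 64.5 and 73.8 CPM in knockouts. The highest value was that of knockout replicate 3, and the groups overlapped (log2 0.11, interval -0.07 to 0.29, edgeR adjusted p = 0.42). CFLAR (ENSG00000003402.19, chr2:201116104-201176687), whose c-FLIP protein resembles caspase-8 but lacks a working protease, held 43.7, 45.1 and 46.0 CPM in controls. In the knockouts it held 47.9, 50.3 and 48.4 CPM, all above the controls. The shift of 0.12 on the log2 scale (interval -0.01 to 0.25) missed the threshold (edgeR adjusted p = 0.20), and passed it without knockout replicate 3 (log2 0.13, edgeR adjusted p = 0.041), where 44.4% of all tested genes were called.

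**Figure D2:**
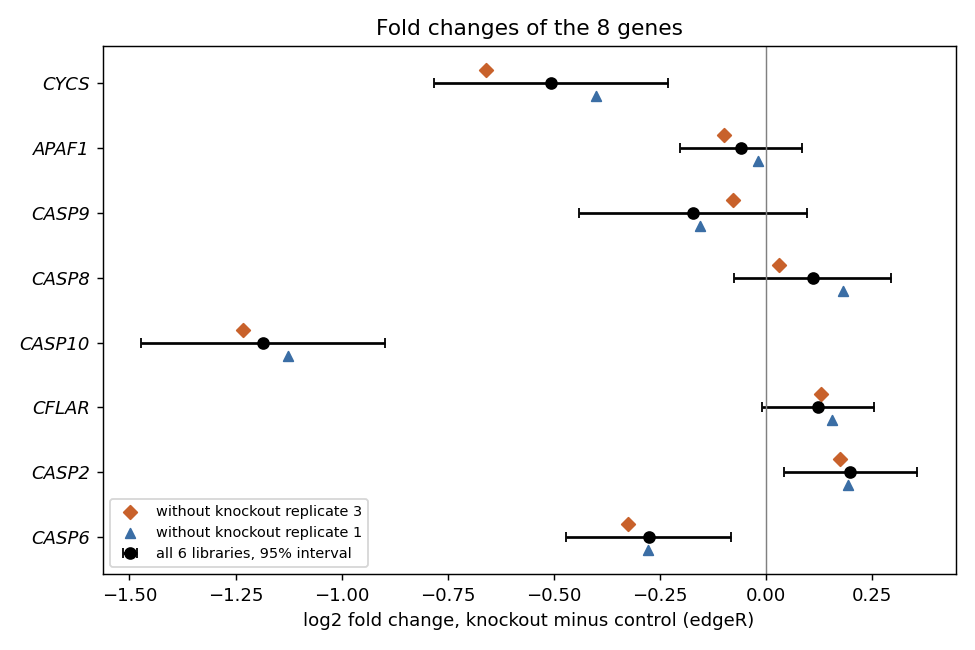
Log2 fold changes (horizontal axis, knockout minus control) of the 8 genes, with black points and bars for all 6 libraries and their 95% interval, orange diamonds without knockout replicate 3 and blue triangles without knockout replicate 1. CASP10 stays near -1.18 throughout, whereas CYCS moves between -0.66 and -0.40.

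Read ratios along the death receptor route separated CASP10 from its neighbours. CASP10 to CASP8 gave 0.0600, 0.0569 and 0.0610 in the controls and 0.0246, 0.0247 and 0.0231 in the knockouts, so the ratio fell 2.45-fold with groups that did not overlap. The log2 difference was -1.29, again with the smallest exact permutation p that this design allows, 0.1. The ratio of the inhibitor gene CFLAR to CASP8 was 0.729, 0.701 and 0.751 in the controls and 0.775, 0.780 and 0.656 in the knockouts. Here knockout replicate 3 was the lowest of all 6 and the other knockouts were the highest. The groups overlapped, with a log2 difference of 0.02 (exact permutation p = 0.9, two-sided), and its sign turned when any of control replicate 2, knockout replicate 1 and knockout replicate 2 was left out.

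**Figure D3:**
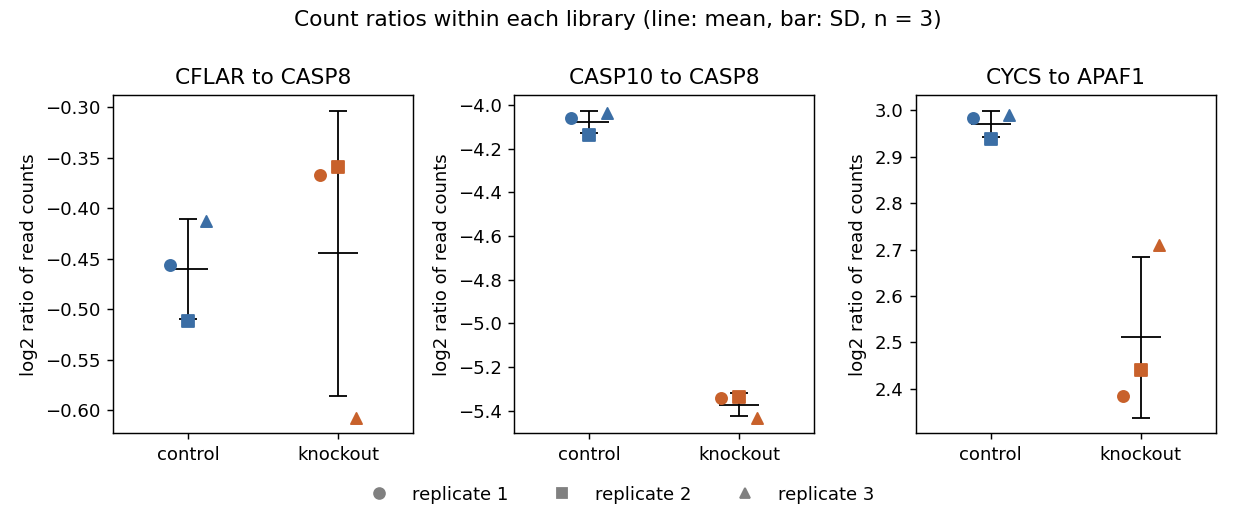
Log2 ratios of read counts within each library, with each vertical axis on its own range that does not start at 0; points are libraries and the line and bar are the mean and SD of 3. CASP10 to CASP8 and CYCS to APAF1 are lower in all knockout libraries, whereas CFLAR to CASP8 overlaps between groups.

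CFLAR, CASP10 and CASP8 stand in this order on the same strand of chromosome 2, with 6193 bases between CFLAR and CASP10 and 4036 bases between CASP10 and CASP8. Of 17 tested genes listed from the surrounding region, 1 rose, 1 fell and 15 did not pass, with log2 fold changes of the latter from -0.17 to 0.31. Over all tested genes 5.71% rose and 9.33% fell. The closest tested genes of that list on either side of the cluster were NDUFB3, a complex I subunit gene (log2 -0.11), and ALS2CR12 (log2 0.31), neither called. AOX1, an aldehyde oxidase gene that starts 597 kb before the start of CASP10, rose 2.07-fold from 0.562 CPM (edgeR adjusted p = 0.012). BMPR2, a receptor for bone morphogenetic proteins that starts 1194 kb after it, fell 1.46-fold (edgeR adjusted p = 0.0029). AOX1 held 21, 17 and 15 reads in the controls and 34, 37 and 36 in the knockouts. At such counts counting error alone is wider than the spread within each group. Its edgeR adjusted p may therefore be too small. Without control replicate 2 or control replicate 3 AOX1 was no longer called (edgeR adjusted p = 0.055 and 0.063). Without knockout replicate 3, 1 of the 17 rose and 5 fell, NDUFB3 among the latter (log2 -0.20, edgeR adjusted p = 0.0012), and with the GC offset 1 rose and 3 fell. The background of those settings was 21.6% higher and 22.8% lower without knockout replicate 3, and 18.3% and 20.0% with the GC offset.

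**Figure D4:**
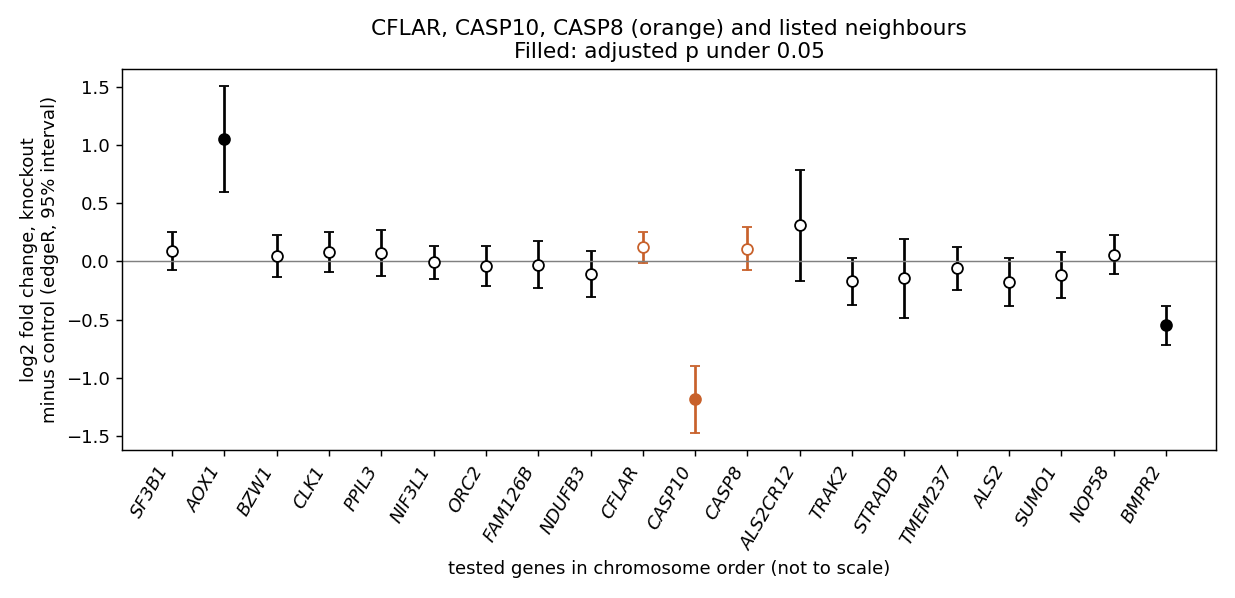
Log2 fold changes (vertical axis, with 95% interval) of the tested genes in chromosome order, horizontal spacing not to scale; orange marks CFLAR, CASP10 and CASP8 and filled points passed an adjusted p of 0.05. CASP10 is at -1.18 between uncalled neighbours.

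CASP2 and CASP6 sit outside the core of both routes and leaned in opposite directions without passing. Caspase-2 is activated on a separate platform, the PIDDosome. CASP2 (ENSG00000106144.19, chr7:143288215-143307696) held 112, 117 and 125 CPM in controls and 140, 126 and 140 CPM in knockouts. All knockouts lay above all controls, by a narrow gap between control replicate 3 and knockout replicate 2 (log2 0.20, interval 0.04 to 0.35, edgeR adjusted p = 0.094). Caspase-6 is an executioner that cleaves nuclear lamins. CASP6 (ENSG00000138794.9, chr4:109688622-109703583, minus strand) held 21.8, 21.2 and 22.03 CPM in controls and 18.4, 16.2 and 19.1 CPM in knockouts. All knockouts lay below all controls (log2 -0.28, interval -0.47 to -0.08, edgeR adjusted p = 0.066). Without knockout replicate 3 both passed, CASP2 upward (edgeR adjusted p = 0.021) and CASP6 downward (edgeR adjusted p = 0.0027). They also passed with an offset for GC content (edgeR adjusted p = 0.0047 and 0.0045), a setting that called 38.3% of all tested genes.

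Per kilobase of GENCODE 29 exon, CYCS stood far above the others in the controls, at 98.4 ± 2.43 CPM per kb. CASP2 (14.7 ± 0.796), CASP6 (11.2 ± 0.221), CASP8 (8.54 ± 0.310) and APAF1 (7.07 ± 0.219) followed, then CASP9 (2.15 ± 0.010), CFLAR (1.99 ± 0.051) and CASP10 (0.482 ± 0.009), all in CPM per kb. No neighbours in this order overlapped among the controls, but the spread of CASP9 there was narrower than counting error at 329 to 393 reads. In the knockouts CASP6 and CASP8 came level at 9.21 ± 0.780 and 9.21 ± 0.872 CPM per kb, and CASP9 (1.91 ± 0.263) and CFLAR (2.17 ± 0.057) overlapped, so neither pair can be ordered there. The order depends on the length used. Per kilobase of the longest coding transcript, control CASP8 (21.1 CPM per kb) stood above CASP6 (14.01) and CFLAR (3.06) above CASP9 (2.54). The exons of CFLAR sum to 22529 bases over 25 annotated transcripts and those of CASP8 to 7243, against 14672 and 2930 bases in their longest coding transcripts. The counts do not separate the long and short c-FLIP isoforms.

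Several members share exon bases with other annotated genes. On the opposite strand this holds for CASP6 (105 bases with MCUB, whose reads were not found under that symbol) and CASP9 (106 bases, with CELA2B at 0 reads). It also holds for APAF1 (750 bases, with ANKS1B at 9 reads in all) and CFLAR (777 bases with CFLAR-AS1, at 0 reads, and 1488 with the pseudogene IMPDH1P10, not used here). CFLAR also shares 445 bases with the non-coding gene AC007283.1 on its own strand, not used here, so reads there cannot be assigned by strand. The library kit keeps strand, but the strand setting of the counting was not given in the sources used here.

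Among 3 further tested genes of the caspase family described here, 1 fell and 2 did not pass, where 9.33% of all tested genes fell. The inflammatory caspase genes CASP1 (log2 -0.08) and CASP4 (log2 0.16) were not called (edgeR adjusted p = 0.51 and 0.18). MALT1, a paracaspase of antigen receptor signalling, fell from 30.8 ± 0.992 to 25.5 ± 0.345 CPM (log2 -0.28, edgeR adjusted p = 0.023). MALT1 was not called with the replicate block (edgeR adjusted p = 0.089) or when any library other than knockout replicate 3 was left out (edgeR adjusted p between 0.059 and 0.13). CASP1 and MALT1 were both called lower without that library, and with the GC offset CASP4 was called higher and MALT1 lower. CASP5 had 19 and 15 reads in all controls and all knockouts, CASP12 had 1 and 0, and CASP14 had none, so these were not tested.

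In the list of death receptors and their adaptors, 5 of 15 tested genes fell, 1 rose and 9 did not pass. Of all tested genes 9.33% fell and 5.71% rose in this fit. FCMR, also called TOSO and described as both an IgM receptor and a modulator of FAS signalling, fell from 37.0 ± 0.961 to 23.7 ± 1.58 CPM (log2 -0.64, edgeR adjusted p = 0.0014). PEA15, a death-effector-domain protein that binds FADD and caspase-8, fell 1.25-fold (edgeR adjusted p = 0.015). TNFRSF10B, a receptor for TRAIL, fell 1.18-fold (edgeR adjusted p = 0.018). MLKL, the effector of necroptosis, and ITCH, a ubiquitin ligase that targets c-FLIP, were also lower (log2 -0.50 and -0.34, edgeR adjusted p = 0.018 and 0.020). FAS rose from 7.501 ± 0.360 to 10.3 ± 1.41 CPM (log2 0.45, edgeR adjusted p = 0.046). Only FCMR of these 6 kept its call in each fit that leaves out a library. Each of the others lost it in 4 of the 6 such fits, including all 3 that leave out a control (edgeR adjusted p between 0.050 and 0.17). The fourth was without knockout replicate 2 for MLKL and without knockout replicate 1 for FAS, PEA15, TNFRSF10B and ITCH. The replicate block also ended the calls of FAS, TNFRSF10B and PEA15 (edgeR adjusted p = 0.087, 0.081 and 0.054), and scaling by library size only ended that of FAS (edgeR adjusted p = 0.054). With the GC offset 3 of the 15 rose and 6 fell, where 18.3% of all tested genes rose and 20.0% fell. Without knockout replicate 3 the counts were 2 and 6, where the shares were 21.6% and 22.8%. The adaptor FADD had a log2 fold change of -0.06 (edgeR adjusted p = 0.70). The median of the list was -0.07. Of the ligands, TNFSF10 (TRAIL) was the single gene tested (log2 0.11, edgeR adjusted p = 0.53), FASLG had 1 read in all, and TNF and LTA had none.

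Beside the apoptosome, 1 of 13 regulator and inhibitor genes rose and 12 did not pass. In the main fit 5.71% of all tested genes rose and 9.33% fell, shares that hold for both lists described here. BIRC3, which encodes the inhibitor protein cIAP2, rose from 22.4 ± 0.484 to 31.7 ± 1.83 CPM (log2 0.50, edgeR adjusted p = 0.0037). XIAP, a direct inhibitor of caspase-9, and its antagonist DIABLO had log2 fold changes of 0.09 and -0.05 (edgeR adjusted p = 0.45 and 0.61). Of the 13, 3 rose and 2 fell without knockout replicate 3, where 21.6% of all tested genes rose and 22.8% fell. With the GC offset 2 rose and 2 fell, where the shares were 18.3% and 20.0%. In the list of PIDDosome and CARD adaptor genes 1 of 7 fell, NLRP1, an inflammasome sensor (log2 -0.84, edgeR adjusted p = 0.0018). PIDD1, the core of the caspase-2 platform, held 29.3, 27.9 and 27.5 CPM in controls and 38.6, 49.2 and 16.9 CPM in knockouts, with knockout replicate 3 lowest and the others highest (edgeR adjusted p = 0.63). PIDD1 was called higher without that library (log2 0.63, edgeR adjusted p = 6.0e-04) and with the GC offset (log2 0.30, edgeR adjusted p = 0.035). In both settings 2 of the 7 genes rose and 2 fell, to be read against the same shares of all tested genes.

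Of 13 tested caspase substrates and executioner genes 2 rose, 1 fell and 10 did not pass. The main fit called 5.71% of all tested genes higher and 9.33% lower. PARP1, a DNA repair enzyme cut by executioner caspases, rose from 1206 ± 33.1 to 1574 ± 36.1 CPM (log2 0.38, edgeR adjusted p = 0.0029). SPTAN1, which encodes spectrin and is cut in apoptosis, rose 1.17-fold (edgeR adjusted p = 0.047). SPTAN1 lost that call when any library other than knockout replicate 3 was left out (edgeR adjusted p between 0.10 and 0.18) and under 5 further alternatives at the same threshold (edgeR and limma adjusted p between 0.056 and 0.0995). DFNA5 (gasdermin E), which turns executioner activity into pyroptosis by forming pores, fell from 18.2 ± 0.783 to 9.43 ± 0.808 CPM (log2 -0.95, edgeR adjusted p = 8.2e-04). LMNA, the gene of lamins A and C, just missed the threshold (log2 0.89, edgeR adjusted p = 0.0501) and was called higher without knockout replicate 3 (log2 1.12, edgeR adjusted p = 1.8e-05). Without that library 4 of the 13 rose and 2 fell, where 21.6% of all tested genes rose and 22.8% fell. With the GC offset 5 rose and 1 fell, where the shares were 18.3% and 20.0%.

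Of 24 tested genes for the maturation of cytochrome c and for complexes III and IV none passed in edgeR. Their fold changes were negative in 19, with a median of -0.12. At an unadjusted p under 0.05, edgeR had 7 of them lower and 2 higher, and DESeq2 and limma-voom called 0 after adjustment. HCCS, the enzyme that attaches haem to cytochrome c, and CYC1, the complex III subunit that hands it electrons, had log2 fold changes of -0.19 and -0.25 (edgeR adjusted p = 0.24 and 0.26). Without knockout replicate 3, 13 of the 24 fell and 3 rose, against 22.8% and 21.6% of all tested genes called lower and higher. With the GC offset 7 fell and 3 rose, against 20.0% and 18.3%. Among 10 tested regulators of nuclear respiratory genes 2 rose, 1 fell and 7 did not pass. The main-fit shares of all tested genes were 5.71% higher and 9.33% lower. GABPA (chromosome 21) and GABPB1 (chromosome 15) encode the subunits of the factor NRF2/GABP and went in opposite directions (log2 -0.33 and 0.36, edgeR adjusted p = 0.039 and 0.028). PPRC1, a coactivator related to PGC-1, rose 1.24-fold (edgeR adjusted p = 0.027). All 3 calls ended when any 1 control or knockout replicate 1 was left out (edgeR adjusted p between 0.065 and 0.18 over the fits that lost a call), and those of GABPA and PPRC1 also without knockout replicate 2. GABPA and GABPB1 were likewise not called with the replicate block (edgeR adjusted p = 0.053 and 0.054) or in limma on the deposited log2 values (adjusted p = 0.074 and 0.051), nor GABPA with RLE scaling (edgeR adjusted p = 0.053). Of the 10, 3 rose and 2 fell without knockout replicate 3, and 3 rose and 3 fell with the GC offset. The shares of all tested genes in these settings are those given above for the 24 genes. NRF1, whose site is searched for above, had a log2 fold change of 0.12 (edgeR adjusted p = 0.29).

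The genes whose pattern over the 6 libraries lay nearest to CASP10 were ITSN1 and FLT1, among 10028 genes averaging 5 CPM or more. Their root mean square distances on mean-centred log2 CPM were 0.02 and 0.04. ITSN1, an endocytic scaffold gene on chromosome 21, held 18.2, 19.3 and 18.8 CPM in controls and 7.90, 8.18 and 8.67 CPM in knockouts. FLT1, a VEGF receptor gene on chromosome 13, held 18.6, 19.6 and 20.7 CPM and 8.13, 8.63 and 8.92 CPM. Nearest to CYCS were PGK1, a glycolytic kinase gene on the X chromosome, and CCT8, a chaperonin subunit gene, at distances of 0.04 and 0.04. CCT8 lies on chromosome 21, as do ITSN1 and GABPA, the last not among these nearest genes. Whether that chromosome has a part in these changes was not tested. PGK1 held 923, 870 and 886 CPM in controls and 570, 612 and 757 CPM in knockouts, so it shared the intermediate value of knockout replicate 3. CCT8 held 779, 763 and 757 CPM and 502, 502 and 622 CPM. These are likenesses over libraries that share depth and group, and carry no test.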

How the data were processed

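The authors deposited a table of raw read counts per gene symbol and a second table of log2 values for 12029 genes. CASAVA 1.8, Trimmomatic, HISAT2, featureCounts, DESeq2 and the hg38 build were named, per the submitters' processing notes; RNA was column-purified and libraries were stranded poly(A), per the labels' protocols. Each deposited log2 value equalled the log2 of that count after multiplication by a library-wide factor between 0.949 and 1.14, and no pseudocount was added. The annotation, strand setting and multi-mapping rule were not given in the sources used here.

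Groups and replicate numbers came from sample titles. Counts were analysed with edgeR 4.0.16 in R 4.3.3 (filterByExpr, TMM, robust quasi-likelihood fit on group, Benjamini-Hochberg over all 12907 tested genes); SE is the absolute log2 fold change over the root of F. Limma 3.58.1 (voom, and on the deposited log2 values) and DESeq2 1.42.0 were alternatives, as were RLE scaling, library size only, other filters, a GC offset (loess span 0.3, GC known for 93.5% of tested genes), a replicate block and leaving out each library. Count ratios were tested with exact permutation over libraries. No pair of libraries agreed within sampling noise (the lowest chi-square per degree of freedom within a group was 1.80). Positions and lengths came from GENCODE 29, where 23900 symbols matched directly and 25 by another symbol.

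The members and gene lists were chosen with earlier results of these data known. Named genes are all members, tested caspases (some that the rule selects are not reported here), listed neighbours, up to 3 called genes per direction of each pathway list, and for each called member the 2 nearest patterns; FADD, TNFSF10, XIAP, DIABLO, PIDD1, HCCS, CYC1, NRF1, NDUFB3, ALS2CR12, MLKL, ITCH, LMNA, the untested genes and the marker genes were named outside this rule, after their values were seen. At these depths 3 counts stand for 0.0870 to 0.104 CPM, a limit that covers counting error only.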

Additional observations from a re-analysis of the deposited data

How the results depend on the processing

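CASP10 was called under all 15 alternatives that tested it, and the stricter filter (5 CPM in 3 libraries) left it untested. CYCS kept its direction in all 16 alternatives and its call in 10, and the call ended at an adjusted p threshold of 0.01 and in 5 of the 6 fits that leave out a library. Among the alternatives of each member, the 0.01 threshold is the main fit read at a stricter limit. Its direction cannot differ from the main fit, and it can only remove calls. The number of members called was 2 in the main fit and with RLE scaling, library size only, no filter, DESeq2, limma-voom, the replicate block and limma on the deposited log2 values (the last added after the data were seen). It was 1 with the stricter filter and 1 at the 0.01 threshold, 4 with the GC offset, and 1 to 5 when a library was left out. The GC offset called 38.3% of all tested genes. The fit without knockout replicate 3, which gave the 5, called 44.4%, against 15.0% in the main fit. The cause of the rise to 4 was not tested. CASP8, CASP9 and APAF1 were called under none of 16 alternatives.

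Over all genes 1941 were called, against 4940 with the GC offset, 828 at the 0.01 threshold and 779 to 5795 when a library was left out. The highest count came without knockout replicate 3 and the lowest without control replicate 2.

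The log2 difference in the ratio of CFLAR to CASP8 was 0.02, and it turned to -0.01 without control replicate 2, -0.02 without knockout replicate 1 and -0.0273 without knockout replicate 2, with 0.0971 as the highest value without a library. With the replicate block 1326 genes were called. Same-numbered libraries of the 2 groups did not deviate together (correlations -0.01, -0.10 and 0.08). With 3 libraries per group, and knockout replicate 3 far from its group, this cannot settle whether equal numbers shared a culture or day. The labels do not say. CASP10, at 46 to 124 reads per library, is the member that depth limits most.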
